A study of Mus musculus with 17 samples.

Results

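The genes described here carry the symbols of the proteins of the cytosolic ribosome. They were taken by symbol: Rpl or Rps followed by a number and at most 1 letter of a, x, y or l, together with Rplp0, Rplp1, Rplp2 and Rpsa, and with pseudogene names (-ps) left out. The rule found 82 genes of the 47069 listed, 32 of the small 40S subunit, 47 of the large 60S subunit outside its stalk, and 3 of the stalk. Joined by Ensembl identifier, 81 of them carried the same symbol in all 3 tables, and Rpl6l was listed under another name in the table of the knockdown. Rps4l is annotated as a transcribed processed pseudogene, and Rpl6l as a processed pseudogene in GENCODE but as protein coding in the deposited table; both were kept, since the rule goes by symbol.

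Expression was measured by RNA sequencing, as reads counted per gene, in 17 libraries of mouse fetal liver cells. All embryos were of day E12.5 to 13.5 and of a B6J.129(Cg) strain (Fezh/J) whose Gt(ROSA)26Sortm1.1 allele expresses cas9 and EGFP from the CAG promoter. In 5 groups the cells carried the guide sgGata1, and the study calls them Gata1s cells, after the short form of the blood transcription factor GATA1. The groups differed in their second transgene: LUC (n = 3) and Arid3a (n = 3) with doxycycline at 1 µg/mL for 48 h, and sh-ctrl (n = 3), shArid3a (n = 2) and miR-125b (n = 3) with the same dose for 10 days. The WT group (n = 3) carried sgLuc and shLuc and had no doxycycline. The labels name no clone or pool, and they do not say that replicates came from separate cultures or embryos, so p-values measure the spread between these libraries only. Library totals were 31339238 to 40859301 counts in the Gata1s groups and 16362439 to 19212193 in WT.

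A ribosome is built from ribosomal RNA and these proteins. The messages of ribosomal proteins are among the most abundant in growing cells, and many begin with a run of pyrimidines, the 5′ terminal oligopyrimidine (TOP) tract, through which mTOR signalling and LARP1 control their translation. Loss of a single copy of several of these genes, RPS19 among them, causes Diamond-Blackfan anaemia, a failure of red cell production in which mutations giving only the short form of GATA1 have also been found.

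Start-site sequences were compared as a feature that the rule did not use. A promoter record was matched in RefSeq (GRCm38.p6) for 60 of the 82 genes. Windows of 30 bases, 15 either side of the annotated start, are printed below for genes whose values recur in the results: Rps27 and its copy Rps27l, Rplp2 of the stalk, Rpl34 and Rps26, which were among the lowest in the libraries labelled Arid3a, Rps6, and Rps28 as a gene with no such run. Capitals mark runs of at least 8 C or T. Of these 7 windows 6 hold such a run, against 26 of all 60, so the printed set was chosen to show the run and does not represent the whole.
Rps27 (chr3:90213634-90213663, minus strand): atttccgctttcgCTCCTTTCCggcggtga
Rps27l (chr9:66946071-66946100, plus strand): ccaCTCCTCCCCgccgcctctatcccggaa
Rplp2 (chr7:141447636-141447665, plus strand): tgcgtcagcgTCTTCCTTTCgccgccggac
Rpl34 (chr3:130730323-130730352, minus strand): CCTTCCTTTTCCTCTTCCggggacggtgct
Rps26 (chr10:128626492-128626521, minus strand): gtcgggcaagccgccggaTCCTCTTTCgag
Rps6 (chr4:86857353-86857382, minus strand): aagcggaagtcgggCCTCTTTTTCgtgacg
Rps28 (chr17:33824548-33824577, minus strand): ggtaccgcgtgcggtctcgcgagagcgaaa

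A run of at least 8 C or T lay within 15 bases of the start in 26 of 60 genes (43.3%), against 13.9% of 27025 genes with a record. Within 50 bases it was found in 51 of 60 (85.0%), against 39.3%. Over windows of 300 bases, from 250 before to 50 after the start and on both strands, the letters CCGGAAG of the ETS factor motif occurred in 25 of 60 (41.7%) against 9.93% of all genes. AAGATGGC, part of the YY1 motif, was in 5 (8.33% against 3.19%), and TATAAA in 6 (10.0% against 15.7%). These matches describe the letters of the windows, and no binding was measured.

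The main mature product of the microRNA in 1 of the transgenes, miR-125b-5p, is printed with its seed, bases 2 to 8, in capitals.
mmu-miR-125b-5p (chr9:41581940-41581961 and chr16:77646279-77646300, both plus strand): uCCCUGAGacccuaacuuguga
Of 77 ribosomal protein genes with an annotated 3′ untranslated region (GENCODE M21), 0 held the 8-base match to the seed region, CTCAGGGA, compared with 5.80% of 11498 genes tested in the same table. A match of 7 or 8 bases (CTCAGGG or TCAGGGA) lay in 5 of the 77 (6.49%), against 23.7% of all genes. Rpl22 and Rps3 were among these 5. The untranslated regions of the 77 genes were short, with a median of 160 bases against 1122.

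Ribosomal protein genes took a large and group-dependent share of all counts. The share was 9.40%, 9.63% and 9.41% in the 3 LUC libraries and 8.92%, 6.94% and 7.73% in those labelled Arid3a. In sh-ctrl it was 14.3%, 11.7% and 11.2%, in shArid3a 14.5% and 16.7%, and in miR-125b 17.4%, 14.65% and 15.3%. The WT libraries were at 8.25%, 6.49% and 6.003%. All libraries labelled Arid3a lay below all LUC libraries, and all shArid3a and miR-125b libraries lay above all sh-ctrl libraries, though sh-ctrl replicate 1 (14.3%) and shArid3a replicate 1 (14.5%) were close. LUC varied least (SD 0.131 around 9.48%) and sh-ctrl most (SD 1.67 around 12.4%). In bulk samples a smaller share of cells with high levels and less RNA per cell cannot be told apart.

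**Figure D1:**
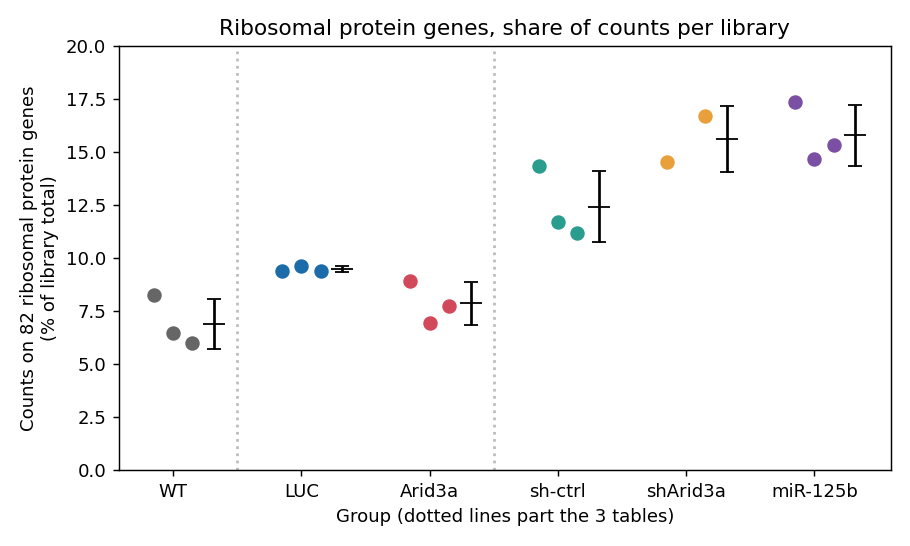
Percent of each library's counts that fell on the 82 ribosomal protein genes (y axis), by group (x axis); points are libraries, and black bars are the mean ± SD of a group. The miR-125b points sit between 14.65 and 17.4, all above the sh-ctrl points at 11.2 to 14.3, and the points labelled Arid3a lie below the LUC points.

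The subunits moved nearly together. Counts on 60S genes, stalk included, were 1.42 to 1.43 times those on 40S genes in LUC and 1.43 to 1.44 times in the libraries labelled Arid3a. The ratio was 1.36 to 1.44 in sh-ctrl, 1.33 and 1.37 in shArid3a, and 1.335 to 1.36 in miR-125b. WT was lowest, at 1.31 to 1.32. WT lies in a table of its own and differs in guide, second transgene and doxycycline, so its values are set beside the others with no test.

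Genes were ranked per kilobase of the deposited gene length. On that scale the acidic stalk protein gene Rplp1 and the 40S gene Rps26 held the first and second ranks in LUC (3790 and 3487 CPM per kb), in sh-ctrl (4468 and 4190) and, in the opposite order, in WT (1948 and 2490). CPM are counts scaled to a common library total. Rplp0, the stalk base, followed at rank 4 in LUC, 12 in sh-ctrl and 5 in WT. These ranks depend on the deposited lengths, which were 495 bases for Rplp1 and 447 for Rps26 but 6270 for Rps15a. By mean CPM without length, Rplp0 (3910) and Rpsa (3196) were highest in LUC. The median over all 82 genes of the CPM was 1081 to 1094 in LUC, 1289 to 1696 in sh-ctrl and 634 to 941 in WT. At the low end, the row of Rpl24 was far under the median in every library (38 to 278 counts). Whether this row reflects the level of Rpl24 or the counting of its reads was not tested. Rpl3l, the copy of Rpl3 known from muscle, had 0 to 19 counts. Rpl39l, a copy known from testis, had counts only in WT replicates 1 and 3 (2 and 7), and Rpl10l, another testis copy, had 0 counts in all 17 libraries. A count of 0 allows up to 3 counts, which is 0.0734 to 0.183 CPM here and covers counting error only.

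The first comparison asks how these genes behaved in Gata1s cells labelled as carrying an Arid3a transgene, which encodes a DNA-binding protein. Counts of Arid3a itself were at 58.3, 74.3 and 80.1 CPM in the libraries labelled Arid3a and at 67.3, 64.0 and 70.2 in LUC, so they overlapped (log2 fold change 0.08, edgeR adjusted p = 0.737), and the directions given here are those of the libraries so labelled. Of 79 ribosomal protein genes tested, 77 had a fitted value below 0, with a median log2 fold change of −0.32 against 0.01 over all 13495 genes tested. Over all genes 51.4% were above 0. The genes kept for testing were 79 of 82, without Rpl3l, Rpl10l and Rpl39l. With 0 of 79 called at an edgeR adjusted p under 0.05, none passed the threshold, as was the case for 0% of all genes, and the smallest adjusted p was 0.076. At an unadjusted p under 0.05, 54 of 79 were lower and 0 higher, where 10.5% of all genes were lower and 10.9% higher (21.4% in either direction). The groups did not overlap in 53 genes, all lower, against 14.6% of all genes lower and 13% higher. DESeq2 called 37 of 79, all lower, and 10.1% of all genes. The medians were −0.32 for the 40S, −0.31 for the 60S and −0.37 for the stalk.

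The values by library show the size of these differences. Rps27 (ENSMUSG00000090733, chromosome 3, 90212522 to 90213651, minus strand, mm10), the gene of a zinc-binding 40S protein, stood at 469, 478 and 422 CPM in LUC (scaled by TMM, edgeR's correction for composition) and at 303, 240 and 313 in the libraries labelled Arid3a. Each of the latter was under every LUC library, and the fitted log2 difference of −0.68 (SE 0.11), with an edgeR adjusted p of 0.0774, was the lowest of all members. That value is uncertain, because the near-identical copy Rps27rt, which is not a member, could share its reads. With the counts of both rows added, the libraries were at 581, 545 and 579 CPM over library totals in LUC and 488, 342 and 395 in those labelled Arid3a, still without overlap, and the fitted value was −0.52 (edgeR adjusted p = 0.0974), no longer the lowest. Rps26, which sits at the mRNA exit channel of the 40S subunit, went from 1436, 1668 and 1638 CPM to 1303, 964 and 1025 (−0.53). Rpl29 and Rpl34 of the large subunit had log2 fold changes of −0.53 and −0.51, and Rpl23a, at the peptide exit, −0.48, all without overlap and all with adjusted p from 0.0908 to 0.104 in edgeR.

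Of the stalk, which recruits elongation factors, Rplp0 had 3774, 4126 and 3995 CPM in LUC and 3317, 3151 and 3253 in those labelled Arid3a, a log2 fold change of −0.29. Rplp1 (−0.40) and Rplp2 (−0.37) also did not overlap between groups. Among 40S genes, Rpsa (−0.39), Rps2 (−0.24), Rps3 (−0.24), Rps14 (−0.41), Rps6, the phosphorylated target of S6 kinase (−0.40), and Rps19 (−0.24) were each lower in all 3 libraries labelled Arid3a than in any LUC library. Among 60S genes the same held for Rpl4 (−0.25), Rpl10 (−0.44), Rpl11, a partner of MDM2 (−0.25), Rpl13a (−0.24) and Rpl41, a very short protein (−0.42). The groups overlapped for Rpl3 (−0.10), Rpl5, which binds 5S RNA with RPL11 (−0.14), and Rpl22 (−0.15).

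At the other end stood Rps27a, whose product is made as a fusion with ubiquitin. Its LUC libraries were at 453, 700 and 327 CPM and the libraries labelled Arid3a at 690, 732 and 438, so the groups overlapped widely (log2 fold change 0.33, SE 0.30, edgeR adjusted p = 0.558). Rps28 (−0.01) and Rps29 (−0.07) were near 0, and in both LUC replicate 1 was far above the other LUC libraries, at 494 against 299 and 324 CPM for Rps28 and at 746 against 436 and 456 for Rps29. Without it their values were 0.25 and 0.22.

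One library weighs on this comparison. Against the LUC mean, the median ribosomal protein gene was at −0.10 in the library labelled Arid3a replicate 1, −0.52 in replicate 2 and −0.35 in replicate 3, while LUC libraries lay within 0.02 of 0. Without Arid3a replicate 1, edgeR called 68 of 79 lower, with 23.2% of all genes called in that fit and a median of −0.43. Leaving out any other library gave 0 calls, and the count at an unadjusted p under 0.05 was 33 without Arid3a replicate 3 and 34 without LUC replicate 2. For these 2 counts the share of all genes was not worked out. Fold changes in this table also varied with gene length (Spearman rho 0.36 across 13441 genes, which are not independent), and ribosomal protein genes are short: with length and GC trends removed, the distance of their median from that of all genes was −0.20 in place of −0.33.

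**Figure D2:**
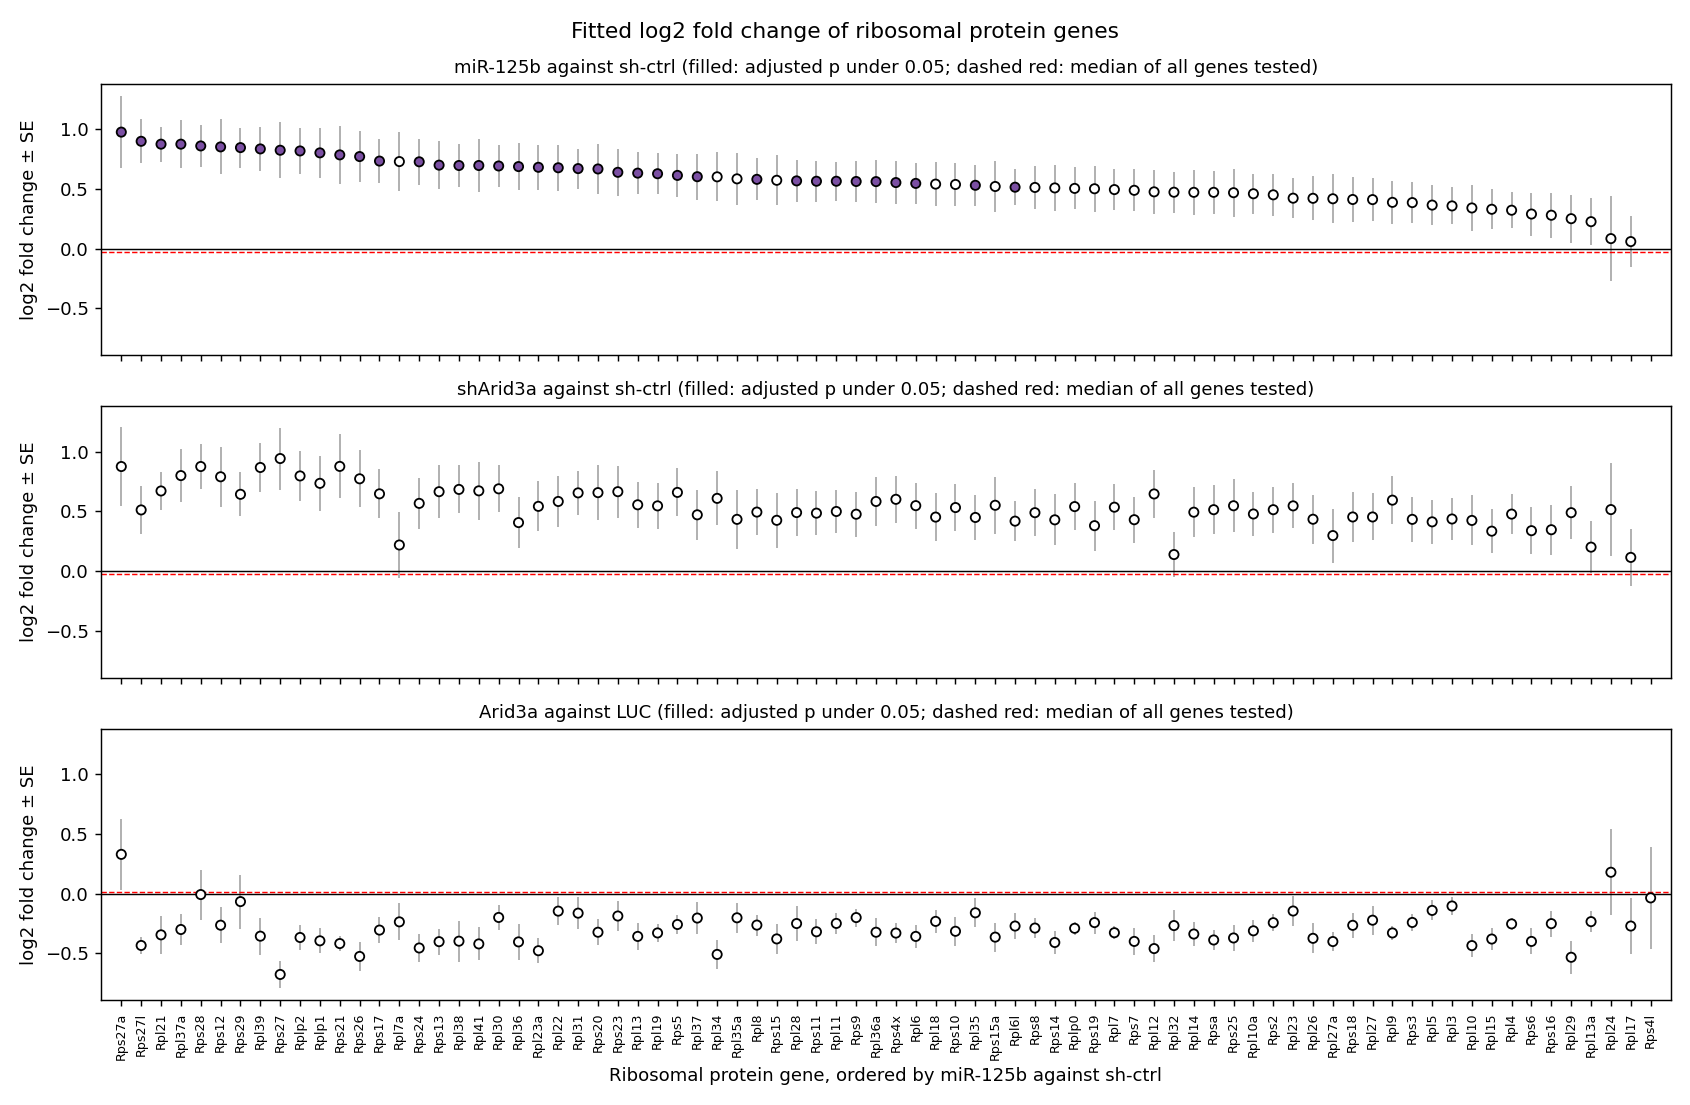
Fitted log2 fold change ± SE (y axis) of the ribosomal protein genes drawn (x axis, ordered by the top panel) in 3 comparisons; filled points were called by edgeR and the dashed line is the median of all genes tested. All points drawn lie above 0 in the upper panels, and all but those of Rps27a and Rpl24 lie below 0 in the lowest.

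The second comparison asks what a hairpin against Arid3a changed after 10 days. It lowered its target from 45.2, 56.3 and 57.2 CPM in sh-ctrl to 20.4 and 18.9 (log2 fold change −1.43, edgeR adjusted p = 0.0368). With rows that resemble ribosomal RNA left out, 0 of 13996 genes were called, so the call of Arid3a was lost. Such rows were 5 of the 7 genes called higher in the main fit. All 78 ribosomal protein genes tested had a fitted value above 0, from 0.12 to 0.94, with a median of 0.52 against −0.02 over 14004 genes, of which 48.4% were above 0. Rps4l was not tested in this table, beside the 3 genes named above. Here too 0 of 78 passed the adjusted threshold, against 0.0857% of all genes (0.05% higher and 0.0357% lower), and the smallest adjusted p was 0.0989. At an unadjusted p under 0.05, 60 were higher and 0 lower, where 13.3% of all genes were higher and 25.8% differed in either direction. The shArid3a libraries both exceeded all sh-ctrl libraries in 61 of 78, against 21.6% of all genes higher and 22.2% lower. DESeq2 called 33, all higher, and 11.4% of all genes. In edgeR without the filter on low counts 12 were called, with 5.7% of all genes. Fold changes over all genes rose with mean log2 CPM here (Spearman rho 0.31 across 13949 genes, which are not independent) and fell with length (−0.33). Ribosomal protein genes are abundant and short, so the median of all genes is not a like reference. With length and GC trends removed, the distance between the medians was 0.37 in place of 0.54. No fit removed the trend with level.

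Rps27 again stood at the end of the range. It had 871, 516 and 609 CPM in sh-ctrl and 1137 and 1423 in shArid3a, which is 0.94 on the log2 scale (SE 0.26) with an edgeR adjusted p of 0.101. Both hairpin libraries were above all controls, and with Rps27rt counts added the value was 0.88. The small 40S proteins Rps21 and Rps28 (both 0.88), Rps27a (0.88) and Rpl39, a short 60S protein at the exit tunnel (0.87), came next, and none overlapped between groups.

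Genes of known role were spread over the range. Rplp0 (0.54), Rplp1 (0.74) and Rplp2 (0.80) of the stalk, and Rpsa and Rps2 (both 0.52), did not overlap. Rps3 (0.43), Rpl3 (0.44), Rpl4 (0.48), Rpl5 (0.41), Rpl11 (0.50), Rpl22 (0.58) and Rpl41 (0.67) did not overlap either. Rps6 (0.34), Rps14 (0.43), Rps19 (0.38) and Rpl10 (0.43) overlapped, and in each of them sh-ctrl replicate 1 was above shArid3a replicate 1.

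The smallest values belonged to Rpl17 (0.12), Rpl32 (0.14), Rpl13a (0.20), Rpl7a (0.22) and Rpl27a (0.30), of which Rpl17 and Rpl32 were below 0 with library totals (−0.07 and −0.06). For Rpl13a, sh-ctrl replicate 1 at 3389 CPM was the highest of all 5 libraries, with the hairpin libraries at 2761 and 3237. Without shArid3a replicate 3 the median over the genes was 0.36, and without sh-ctrl replicate 1 it was 0.63. The count at an unadjusted p under 0.05 was 20 without sh-ctrl replicate 3, 33 without sh-ctrl replicate 2 and 29 with replicate number as a block. In these fits the share of all genes under that threshold was not worked out, so an excess over all genes cannot be read from them. In the fit without shArid3a replicate 3, the single shArid3a library left is assumed to vary like the other groups.

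The third comparison set miR-125b against the same 3 sh-ctrl libraries, so it is not independent of the second. Arid3a itself fell to 7.14, 9.75 and 10.0 CPM (log2 fold change −2.56, edgeR adjusted p = 0.000282). Of 78 ribosomal protein genes, 39 rose at an edgeR adjusted p under 0.05 and 0 fell, where 24.4% of all genes were called, 12.1% higher and 12.2% lower. Fitted values were above 0 in 78 of 78, from 0.06 to 0.98, with a median of 0.56 (a fold of 1.47) against −0.03 over all genes, of which 48.4% were above 0. At an unadjusted p under 0.05, 65 were higher, where 19.7% of all genes were higher and 20.1% lower (39.8% in either direction). Without sh-ctrl replicate 3 there were 39, and without miR-125b replicate 1 there were 40, with the share of all genes in those fits not worked out. All miR-125b libraries exceeded all sh-ctrl libraries in 58 genes, against 22% of all genes higher and 23% lower. By subunit, 17 of 31 genes of the 40S, 20 of 44 of the 60S and 2 of 3 of the stalk rose, with medians of 0.57, 0.54 and 0.80. DESeq2 called 61 of 78, all higher, and 31.2% of all genes.

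The count depends strongly on single libraries. It was 9 without sh-ctrl replicate 2, where 20.7% of all genes were called, and 2 without sh-ctrl replicate 3, where 5.3% were. It was 7 without miR-125b replicate 1 (12.7% of all genes) and 12 without replicate 3 (14.6%), whereas it was 28 without miR-125b replicate 2 (16% of all genes) and 49 without sh-ctrl replicate 1 (17.6%). The medians in these fits stayed between 0.44 and 0.69. With library totals in place of TMM 22 genes were called, where 23.9% of all genes were. The median of all genes was then at −0.22, and the distance between the medians was 0.58 against 0.59 with TMM. With length and GC trends removed that distance was 0.38, with 41 genes called, of which 32 were among the 39. In that fit 27.5% of all genes were called, 3159 higher and 697 lower. Fold changes over all genes also rose with mean log2 CPM (Spearman rho 0.23), a trend that no fit removed. The blocked fit called 31, of which 30 were among the 39, and 26.3% of all genes. The block with both trends removed called 24, of which 19 were among the 39. It called 29.3% of all genes, 3251 higher and 848 lower.

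Rpl21 (ENSMUSG00000041453, chromosome 5, 146832890 to 146837032, plus strand, mm10), a gene of the 60S subunit, had the smallest adjusted p. It had 533, 583 and 587 CPM in sh-ctrl and 1176, 900 and 1048 in miR-125b. The groups were far apart and the controls close together, with a fitted log2 difference of 0.88 (SE 0.15) and an edgeR adjusted p of 0.00648, and it passed in all 18 alternative fits. Rps27l, a copy of Rps27 known to respond to p53, rose from 445, 322 and 296 to 701, 599 and 684 CPM (0.90, edgeR adjusted p = 0.0108). Rps28 rose from 529, 422 and 398 to 958, 706 and 787 (0.86, edgeR adjusted p = 0.0106).

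Rps27a had the largest value, 0.98 (SE 0.30, edgeR adjusted p = 0.0408). Its sh-ctrl libraries were at 1094, 510 and 1037 CPM and its miR-125b libraries at 2113, 1209 and 1875, so sh-ctrl replicate 2 was far below the other controls. Rpl37a (0.88), Rpl39 (0.84) and Rps27 (0.82) rose as well. In edgeR, calls were lost without sh-ctrl replicate 3 for Rps27l (adjusted p = 0.0514), Rps28 (0.0515), Rpl37a (0.0729), Rpl39 (0.0666), Rps27a (0.0828) and Rps27 (0.114). Rps27a and Rps27 were also lost in edgeR without sh-ctrl replicate 2 (adjusted p = 0.0872 and 0.0912) or miR-125b replicate 1 (0.111 and 0.0996), and Rps27a without miR-125b replicate 3 (0.0949). With library totals in place of TMM the edgeR adjusted p was 0.0758 for Rps27a and 0.0509 for Rps27. With Rps27rt counts added, Rps27 had a value of 0.77 (edgeR adjusted p = 0.0258).

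In the stalk, Rplp1 rose from 2576, 1990 and 1571 to 4303, 3129 and 3277 CPM, a log2 fold change of 0.80 (edgeR adjusted p = 0.0238). Rplp2 rose by 0.82 on the log2 scale (edgeR adjusted p = 0.0165). Rplp0 had no overlap between groups but missed the threshold (0.51, edgeR adjusted p = 0.0591). Without sh-ctrl replicate 3 the edgeR adjusted p was 0.0956 for Rplp1 and 0.0703 for Rplp2, and for Rplp1 it was also above the threshold without sh-ctrl replicate 2 (0.0571) and miR-125b replicate 1 (0.0725).

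Of the other genes of known role, Rpl11 (0.56), Rpl22, a 60S protein with the copy Rpl22l1 (0.68), Rpl41 (0.70) and Rps4x (0.55) rose. The blocked edgeR fit, which pairs libraries by replicate number, put Rpl11 (adjusted p = 0.0524), Rpl41 (0.0538) and Rps4x (0.0764) above the threshold, and each was lost without sh-ctrl replicate 3 as well (0.124, 0.159 and 0.167). With library totals Rpl41 (edgeR adjusted p = 0.0605) and Rps4x (0.0686) were also above it, as they were with length and GC trends removed (0.0509 and 0.0521), and Rps4x without the filter (0.0542). Rpl22 was lost in edgeR without sh-ctrl replicate 2 (adjusted p = 0.0854) or 3 (0.113) and without miR-125b replicate 1 (0.0923) or 3 (0.0723). Rpl11 was also lost when sh-ctrl replicate 2 was left out, or replicate 1 or 3 of miR-125b, Rpl41 without all but sh-ctrl replicate 1, and Rps4x without any 1 of the 6 libraries. Rpsa (0.47), Rps2 (0.45), Rps14 (0.51), Rps19 (0.50), Rpl3 (0.36), Rpl4 (0.32) and Rpl5 (0.36) did not overlap between groups and did not pass. Rps3 (0.39), Rps6 (0.29), Rps16 (0.28), Rpl10 (0.34), Rpl29 (0.25) and Rpl13a (0.23) overlapped. The lowest value was that of Rpl17 (0.06), with 1244, 758 and 971 CPM in sh-ctrl and 1136, 941 and 1019 in miR-125b.

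Set directly against shArid3a, miR-125b gave 0 calls among 78 genes, where 1.35% of all genes were called (0.664% higher and 0.686% lower). In edgeR 0 had an unadjusted p under 0.05, against 14.5% of all genes (7.32% higher and 7.2% lower), and DESeq2 also called 0. The groups did not overlap in 3 genes, all higher, against 14.4% of all genes higher and 15.4% lower, and 42 were above 0, against 49.4% of all genes. The median log2 fold change was 0.01, and values ran from −0.43 (Rpl24, at 8.3, 3.1 and 6.0 against 7.6 and 8.1 CPM) to 0.51. Rpl7a was the highest: its miR-125b libraries were at 1111, 574 and 723 CPM and its shArid3a libraries at 561 and 565. Its pseudogenes held 12.4%, 19.5% and 17.4% of the joint counts in miR-125b and 24.75% and 23.7% in shArid3a. With their counts added the libraries overlapped, at 1135, 708 and 848 against 734 and 679 CPM over library totals, and the fitted value of Rpl7a was 0.36 (edgeR adjusted p = 0.568), so its place at the top is uncertain. Rps27l (0.39), Rpl32 (0.33), Rpl36 (0.28) and Rpl21 (0.20) followed. Above a mean log2 CPM of 3, Rpl29 (−0.24), Rpl9 (−0.21), Rpl12 (−0.17), Rpl4 (−0.16) and Rpl23 (−0.12) were lowest. The SE was 0.28 for Rpl7a, 0.21 for Rps27l and 0.22 for Rpl29, so differences of this size were not detectable with 3 and 2 libraries. Leaving out 1 library moved the median over the genes to between −0.14 (without shArid3a replicate 1) and 0.18 (without shArid3a replicate 3).

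Side by side, 76 of 78 genes had fitted values above 0 with miR-125b and shArid3a and below 0 in the libraries labelled Arid3a. The exceptions were Rps27a and Rpl24, the latter with only 38 to 278 counts per library. The first pair of comparisons shares its controls, and no test was made of this count. The share of all genes with this pattern was not worked out. Over all genes, fold changes fell with length in the first pair (Spearman rho −0.30 and −0.33) and rose with it in the libraries labelled Arid3a (0.36). Ribosomal protein genes are short, so short genes at large could lean the same way, which was not tested.

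**Figure D3:**
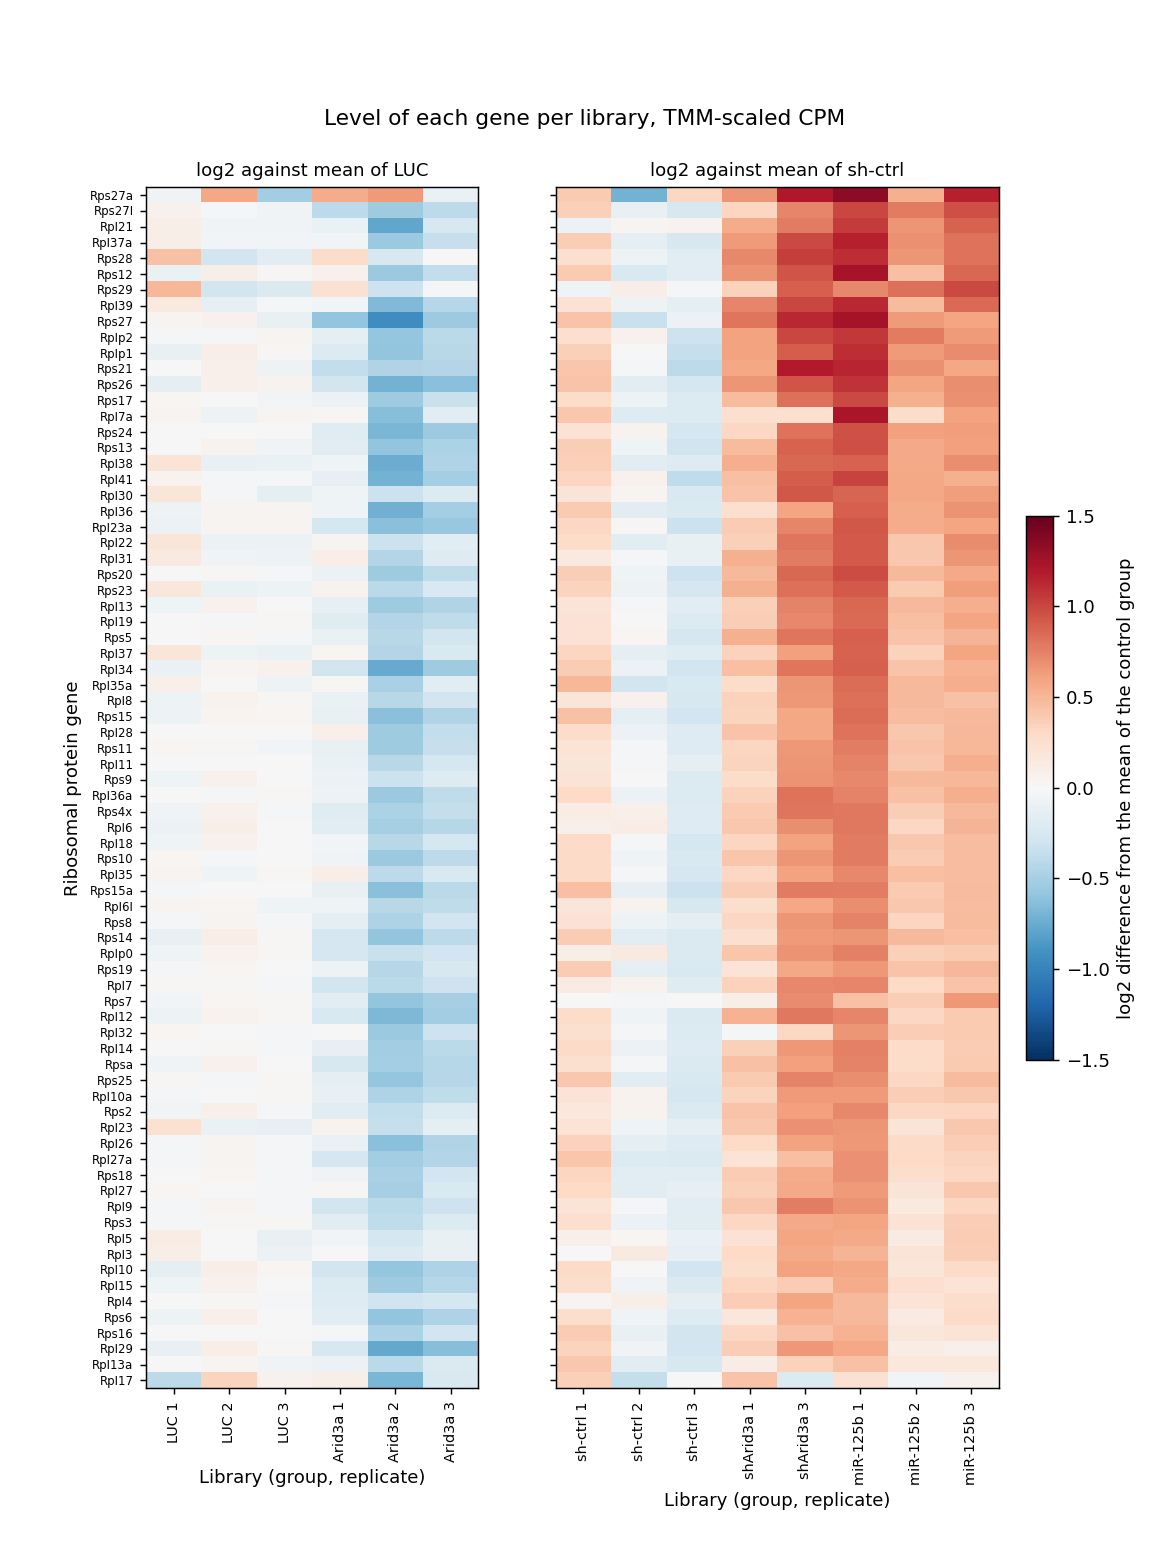
Each cell is the log2 difference of 1 ribosomal protein gene (rows, 76 genes, ordered by miR-125b against sh-ctrl) in 1 library (columns) from the mean of the LUC or sh-ctrl libraries, in TMM-scaled CPM. Within the treated groups, the library labelled Arid3a replicate 2 is lowest, miR-125b replicate 1 and shArid3a replicate 3 are highest, and sh-ctrl replicate 1 is above the other controls over most genes.

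Libraries of a group differed over the whole set at once, as the map of single libraries shows. Against the sh-ctrl mean, the median gene was at 0.28 in sh-ctrl replicate 1, −0.06 in replicate 2 and −0.21 in replicate 3. It was at 0.37 and 0.67 in shArid3a replicates 1 and 3, and at 0.77, 0.40 and 0.50 in miR-125b. Each gene therefore carries the same library differences, and the 78 genes are not 78 independent observations.

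Other features of the libraries were measured beside these values. Mitochondrial transcripts took 2.53% to 4.54% of counts in sh-ctrl, 2.19% and 3.005% in shArid3a and 1.89% to 2.46% in miR-125b. Rows that resemble ribosomal RNA took 0.179% to 0.502% in sh-ctrl and 0.441% to 0.484% in miR-125b, and 5 of 8 such rows tested rose in both shArid3a and miR-125b. The 5 megakaryocyte markers (Itga2b, Gp9, Gp1ba, Pf4, Ppbp) summed to 2621 to 4313 CPM in sh-ctrl and 2375 to 3012 in miR-125b, with 2 of 5 lower in miR-125b. They summed to 2420 to 2796 in LUC and 2126 to 3684 in the libraries labelled Arid3a. The 5 myeloid markers (Mpo, Elane, Prtn3, Ctsg, Ly6c2) summed to 49.3 to 110 CPM in sh-ctrl and 78.0 to 144 in miR-125b, with 2 of 4 tested higher, and the 5 mast cell markers to 6.75 to 71.4 and 18.9 to 200.2, with 1 of 5 higher. The ranges of these 3 marker sums overlapped between sh-ctrl and miR-125b. The 3 endothelial markers (Pecam1, Cdh5, Kdr) did not overlap in any of the 4 comparisons: they summed to 145 to 149 CPM in LUC and 172 to 183 in the libraries labelled Arid3a, and to 144 to 157 in sh-ctrl, 126 to 131 in shArid3a and 97.3 to 121 in miR-125b. Cdh5 was at 0 in all 5 groups, and 0 of 2 markers tested were called in any comparison. Of the 5 erythroid markers listed, 4 were summed (Hba-a1, Hbb-bt, Epor and Alas2), and the sum over all 5 is not reported here. These 4 summed to 129 to 208 CPM in sh-ctrl, 92.6 to 109 in shArid3a and 89.2 to 132 in miR-125b, with Hbb-bt lower in miR-125b (−1.92, edgeR adjusted p = 0.0267). They summed to 59.6 to 81.4 in LUC and to as much as 190.1 in the libraries labelled Arid3a, with overlap. The part of these features in the result was not tested.

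The labelled tissue was checked the same way. The 7 hepatocyte markers summed to at most 5.65 CPM in any library, with Ahsg, Alb, Serpina1a and Ttr at 0 in miR-125b, shArid3a and WT, while 2 of 2 tested were higher in miR-125b than in sh-ctrl. The myeloid markers summed to 6099 to 7121 CPM in WT and to at most 144 in the Gata1s groups. This difference lies beside every comparison of ribosomal protein levels with WT, and its part in them was not tested.

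Within the set, WT cells divided their ribosomal protein counts differently from LUC cells. Rpl36 made up 0.479%, 0.388% and 0.352% of the counts of the set in WT against 0.797%, 0.840% and 0.868% in LUC, and Rpl39 0.339%, 0.315% and 0.284% against 0.6805%, 0.549% and 0.612%. Rpl35 went the other way, at 0.742%, 0.859% and 0.761% against 0.443%, 0.399% and 0.437%. Rps27a was at 1.27%, 0.914% and 1.01% in WT against 0.476%, 0.714% and 0.344%. Other Gata1s groups reached the WT range for Rps27a, with up to 1.065% in the libraries labelled Arid3a and 1.185% in miR-125b. For these 4 genes, of which Rpl35 and Rpl36 were picked here after their values were seen, WT and LUC did not overlap. They lie in different tables and carry no test.

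Several of these genes have close copies, and the split of reads among near-identical copies is uncertain. Rps27l counts were 69.85%, 64.8% and 71.4% of those of Rps27 in LUC and 78.8%, 90.5% and 76.3% in those labelled Arid3a. They were 51.2%, 62.5% and 48.5% in sh-ctrl, 38.2% and 40.6% in shArid3a, and 45.3%, 59.4% and 69.8% in miR-125b. WT spread from 38.4% to 68.5%. A second copy, Rps27rt, held 25.6%, 16.2% and 38.6% of the Rps27 count in LUC and 59.1%, 41.3% and 23.9% in those labelled Arid3a, so it varied widely within groups. As a share of Rps27 and Rps27rt together, Rps27l was at 55.6%, 55.8% and 51.5% in LUC and 49.5%, 64.1% and 61.6% in the libraries labelled Arid3a, and the groups overlapped. On the same basis it was at 44.0%, 44.7% and 40.3% in sh-ctrl, 32.6% and 33.9% in shArid3a, and 39.8%, 53.9% and 51.0% in miR-125b. Both shArid3a libraries were thus under all sh-ctrl libraries with either denominator, and miR-125b overlapped with sh-ctrl.

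Rps4l, a copy of the X-linked Rps4x on chromosome 6, differed by table. It had 224 to 288 counts in WT (11.7 to 17.6 CPM) and 68 to 206 counts in LUC and the libraries labelled Arid3a (1.895 to 6.11 CPM). In the 8 libraries of sh-ctrl, shArid3a and miR-125b it had 1 count in sh-ctrl replicate 1 and 0 in the rest, which allows up to 0.0938 CPM. Rps4x itself was at 2168 ± 165.5 CPM over library totals in sh-ctrl (SD, n = 3). Whether the tables counted this gene in the same way was not tested.

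Counting can also split reads between a gene and its pseudogenes, which number 272 in the table and took 0.226% to 0.616% of counts. For Rpl17 the 7 pseudogenes held 17.7% of their joint counts in LUC replicate 2 and 64.9% in WT replicate 3. In LUC, Rpl17 itself was at 478, 788 and 657 CPM over library totals, while with Rpl17-ps10 added the libraries were at 944, 938 and 915. The single row thus varied between replicates where the sum hardly did, and the values of Rpl17 above are uncertain for that reason. The pseudogene share of Rps27a ran from 0.868% to 15.5%, of Rpl7a from 6.93% to 24.8% and of Rpl21 from 30.0% to 50.9%. With all pseudogene counts added to their parents, 40 of 78 genes were called in miR-125b against sh-ctrl, including all 39 of the first fit.

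**Figure D4:**
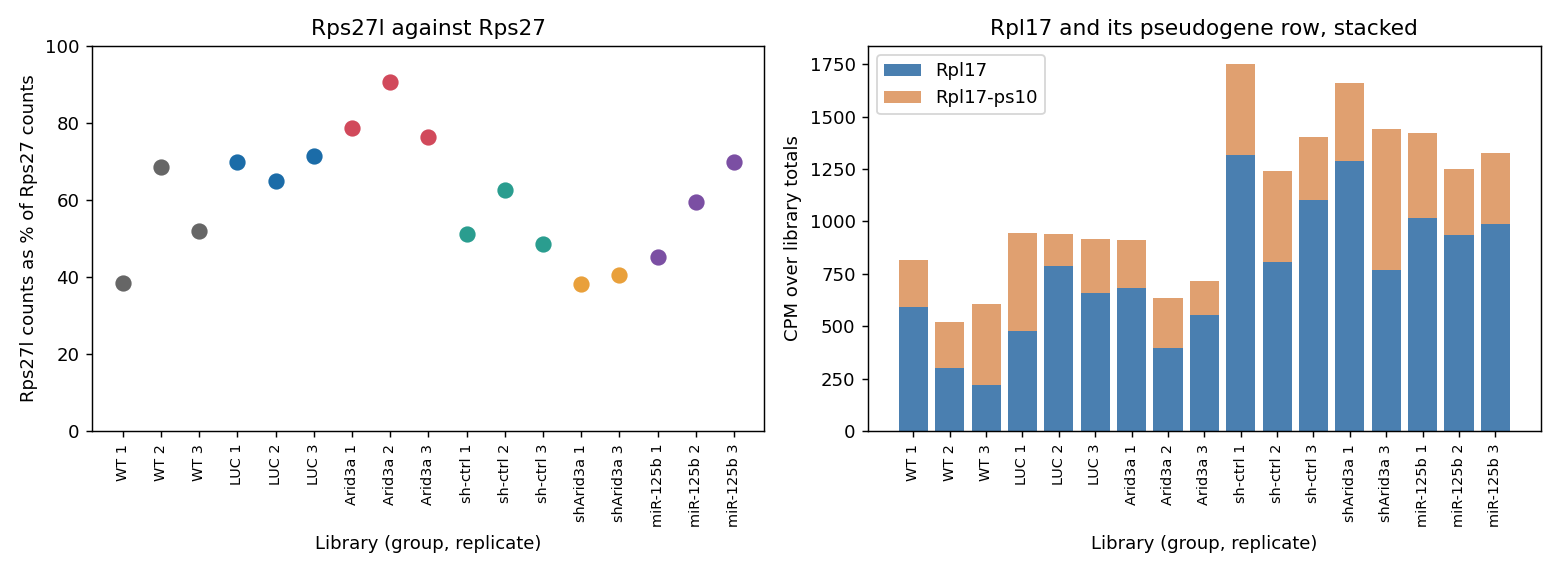
Left, counts of Rps27l as a percent of counts of Rps27 in each library; right, Rpl17 and its pseudogene row Rpl17-ps10 stacked, in CPM over library totals. Among the Gata1s groups the Rps27l points run from 38.2 and 40.6 in shArid3a to 76.3 to 90.5 in the libraries labelled Arid3a; counts of the further copy Rps27rt are not in this ratio, and with them added to Rps27 the libraries labelled Arid3a overlap LUC, and the LUC stacks reach 944, 938 and 915 CPM with unequal parts.

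Genes that act with the ribosome were followed as lists, and each is described by counts, to be read against the 12.1% of all genes that rose and the 12.2% that fell with miR-125b. Of 35 ribosome assembly genes, 12 rose (34.3%) and 0 fell, with a median of 0.39. Among them, Nop10 (0.90, edgeR adjusted p = 0.00965) and Nhp2 (0.98, adjusted p = 0.0129) belong to the complex that makes pseudouridine in ribosomal RNA, and Nop16 (0.78, adjusted p = 0.0176) is nucleolar. Of 15 RNA polymerase I genes 4 rose (26.7%) and 1 fell: the shared subunits Polr1c (0.68) and Polr1d (0.66) and the general subunit Polr2e (0.57) were among those that rose. Of 16 translation factors with TOP messages 6 rose (37.5%) and 1 fell, with the elongation factor genes Eef1d (1.02) and Eef1g (0.60) and the nascent chain factor Naca (0.67) leading.

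Of 13 other initiation factors 3 rose (23.1%), Eif1 (0.70), Eif1ax (0.62) and Eif5b (0.47), and of 9 host genes of small nucleolar RNAs 3 rose (33.3%), Snhg8 (0.78), Zfas1 (0.69) and Snhg5 (0.46). Of 14 regulators of ribosome output 0 rose and 2 fell (14.3%, near the share of all genes): the translation repressor gene Eif4ebp2, from a mean of 85.5 to 29.2 CPM (−1.55, edgeR adjusted p = 0.00609), and Mxd4, a MYC antagonist (−0.88, adjusted p = 0.0208). In the other comparisons 0 genes of these 6 lists were called. With shArid3a the medians were 0.35 for assembly, −0.002 for RNA polymerase I, 0.44 for TOP factors and −0.17 for regulators, and in the libraries labelled Arid3a they were −0.07, −0.08, −0.23 and 0.15.

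**Figure D5:**
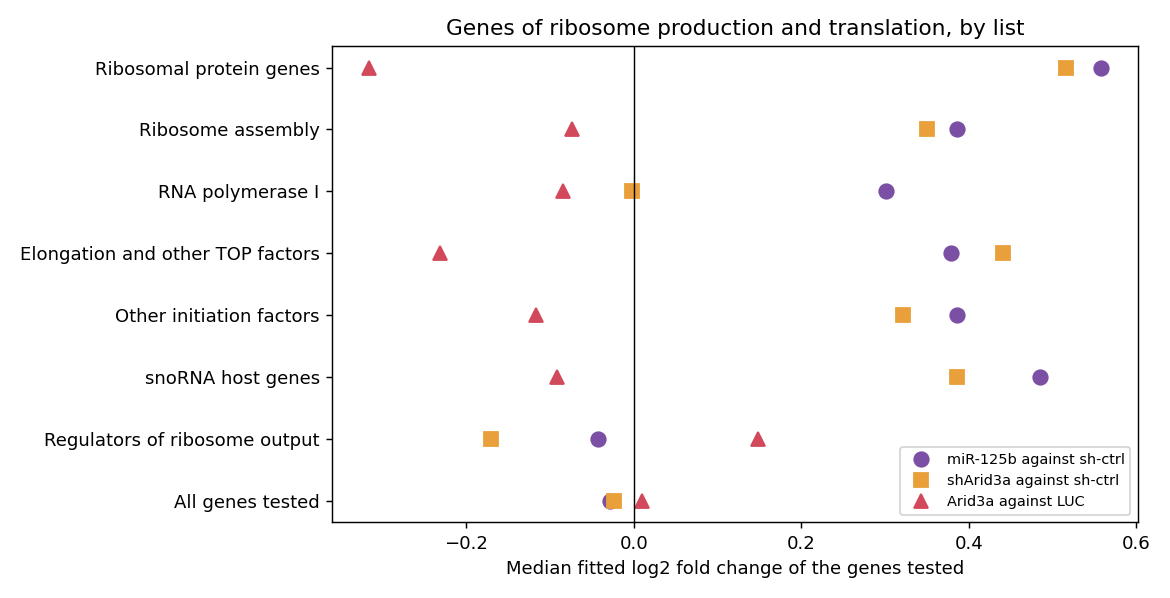
Median fitted log2 fold change (x axis) of ribosomal protein genes, of 6 related gene lists and of all genes tested (y axis) in 3 comparisons. In each comparison the ribosomal protein genes lie farthest from 0, at 0.56, 0.52 and −0.32.

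Ribosomal proteins and near copies that the naming rule leaves out were followed as well. Of 7 tested, among them Fau, which encodes a 40S protein fused to a ubiquitin-like one, Rack1 and Rps3a1, all had values above 0 with miR-125b. Of the 7, 2 rose (28.6%, against 12.1% of all genes): Rpl36al (0.82, edgeR adjusted p = 0.019) and Rpl22l1 (0.73, adjusted p = 0.0392). Both are near copies, of Rpl36a and Rpl22. With shArid3a 7 of 7 were above 0 and in the libraries labelled Arid3a 0 of 7, with 0 called in both.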

How the data were processed

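RNA-seq counts per gene of 17 libraries lay in 3 deposited tables (overexpression, knockdown and WT), with 0 sample columns left unused. Per the submitters' processing notes, fastp, HISAT2 2.0.5, featureCounts and mm10 were used by the authors to make these counts; the annotation, the use of strand and the treatment of reads that match several places are not given in the sources used here, so counts of near-identical copies are uncertain. The deposited gene length column served for levels per kilobase. Libraries of different tables were compared without a test.

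Within a table, genes kept by filterByExpr were fitted with edgeR 4.0.16 (R 4.3.3) by its quasi-likelihood test with TMM scaling, with all groups of the table, and p-values were adjusted over all genes by Benjamini-Hochberg at 0.05. Alternatives were library totals, RLE factors, TMM without these genes, DESeq2 1.42.0, no filter, ribosomal RNA-like rows left out, length and GC trends removed, a replicate block, only the groups compared, each library left out, pseudogene counts added to their parents, and Rps27rt counts added to Rps27, the last 2 chosen after seeing the data. The edgeR fits were also run on simulated data. Those data drew each gene independently with a fixed spread and held no shift of a whole library, so they do not bear on such shifts here. Reads carry no molecular identifiers, so limits from a count of 0 cover counting error only.

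Libraries with the same replicate number deviated together in the knockdown table (correlations of 0.106 to 0.466 in all 7 pairs). Pairs with different numbers reached 0.43 (sh-ctrl 2 with shArid3a 3), 0.261 (sh-ctrl 3 with miR-125b 2) and 0.125 (miR-125b 2 with shArid3a 3). The deviations of the 2 shArid3a libraries are opposite by construction, so these correlations are not independent. Among the overexpression libraries, pairs 1, 2 and 3 were at 0.134, 0.373 and −0.062, and pairs with different numbers reached 0.222. These values do not settle whether the numbers pair the libraries. The main fits and their p-values hold no replicate term, and the block was run as an alternative. The genes named were the 5 highest and 5 lowest by fold change in each comparison at a mean log2 CPM of at least 3, a set of genes of known role, genes with close copies and genes under the filter, and up to 3 genes with the smallest adjusted p of each related list. The members and lists were chosen with earlier results of these data known. Results by name for a few genes are not reported here, and 1 gene is not drawn in the plots by gene.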

Additional observations from a re-analysis of the deposited data

How the results depend on the processing

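Without a library, calls among the ribosomal protein genes ran from 0 to 68 in the libraries labelled Arid3a against LUC. In those fits 0% to 23.2% of all genes were called. In miR-125b against sh-ctrl calls ran from 2, with 5.3% of all genes called, to 49, with 17.6%. DESeq2 called 37, 33 and 61 genes in Arid3a, shArid3a and miR-125b against their controls, with 10.1%, 11.4% and 31.2% of all genes. Without the filter edgeR called 1 and 12 in the first and second, with 0.321% and 5.7% of all genes. Library totals left 22 calls with miR-125b (23.9% of all genes). The replicate block with length and GC trends removed left 24 (29.3% of all genes), of which 19 were shared with the 39. The replicate block alone gave 31 (30 shared, 26.3% of all genes). In the libraries labelled Arid3a against LUC it gave 0, with 0% of all genes. The LUC share of counts was 9.66% without mitochondrial genes in the total and 9.82% with pseudogenes added. Fits that leave a library out have fewer samples; for the other changes the cause was not tested.

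Some values near 0 changed sign. In Arid3a against LUC, Rps28 was at 0.031 with library totals, 0.067 with trends removed, 0.013 with the replicate block, 0.096 with both, and −0.146 to 0.249 without 1 library. Rps29 was at 0.021 with trends removed, 0.061 with the block and trends, and −0.207 to 0.223 without 1 library. Rpl17 was at −0.136 with library totals in miR-125b against sh-ctrl and −0.11 to 0.242 without 1 library. In shArid3a against sh-ctrl it was at −0.066 with library totals, −0.009 with the replicate block, −0.036 with block and trends, and −0.233 to 0.404 without 1 library. Rpl32 there was at −0.055 with library totals and −0.04 to 0.309 without 1 library. Rpl23 in miR-125b against shArid3a ran from −0.263 to 0.022. Low counts limit the values of Rpl24, with 38 to 278 per library, and whether its reads were lost in counting was not tested.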
